A study of Mus musculus with 24 samples.

Results

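The RNA binding protein HuR, encoded by Elavl1, is known to bind many messenger RNAs, and 10 of its reported targets that act in cell survival and the cell cycle are described here in mouse bone marrow-derived macrophages. They are Sirt1, Mcl1, Xiap, Bcl2, Cdkn1a, Trp53, Mdm2, Myc, Ccnd1 and Ptma, which were chosen by symbol from the 52636 genes of each deposited table. The values are RNA levels, and binding of HuR was not measured in them. Macrophages were grown from the marrow of 6 mice aged 8 to 12 weeks, over 6 days in medium conditioned by L cells. The labelled knockouts (KO), KO-176, KO-281 and KO-301 by animal number, carried 2 floxed Elavl1 alleles (fl/fl), and the controls (HET), HET-97, HET-102 and HET-129, carried 1 (+/fl). Both genotypes carried Csf1r-iCre, a Cre recombinase under the promoter of the macrophage growth factor receptor gene, and the ribosomal protein L10a fused to EGFP, so neither is free of Cre or of a floxed allele. Separate plates of each mouse spent 18 h in hypoxia (1% oxygen) or normoxia (20% oxygen). Each lysate gave a library of poly(A) RNA bound to tagged ribosomes (TRAP, translating ribosome affinity purification) and a library of total poly(A) RNA, which makes 24 libraries in 8 groups of 3 mice. Levels are in TPM, a unit of transcript share in each library that is corrected for gene length, so that levels of different genes can be set side by side while sequencing depth is unknown.

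HuR binds stretches rich in U and A, mostly in 3′ untranslated regions, and is known to stabilise many of the messengers it binds or to raise their translation. The 10 genes fall into 3 sets by their role. Mcl1, Bcl2 and Xiap encode inhibitors of apoptosis, the first pair at mitochondria and Xiap by blocking caspases, while Sirt1 encodes an NAD-dependent deacetylase and Ptma the acidic nuclear protein prothymosin alpha, both also tied to survival. Trp53 encodes the tumour suppressor p53, Mdm2 the ubiquitin ligase that degrades p53, and Cdkn1a the cell cycle inhibitor p21, whose gene p53 activates along with that of Mdm2. Myc encodes a transcription factor that drives growth, and Ccnd1 encodes cyclin D1, which carries cells through G1.

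The pentamer ATTTA, the core of many AU-rich elements, occurred at least once in the annotated 3′ untranslated region of all 10 genes, as it did in 67.1% of 10679 genes tested in total RNA. Only the RNA strand was searched, and overlapping copies were counted. Xiap had 16 copies, Bcl2 15, Mcl1 and Mdm2 8 each, Sirt1 7, Ccnd1 5, Cdkn1a 4, Myc and Ptma 2 each and Trp53 1. Per kilobase the count ran from 1.87 in Ccnd1 to 5.99 in Mdm2, against a median of 1.28 over all these genes. The longer element TTATTTATT, which contains ATTTA, was found in Bcl2 with 2 copies and Mdm2 with 1, and in 7.29% of all these genes. Counts and sequences are from 1 annotated transcript of each gene. The 30 bases with the most ATTTA copies, the first of any ties, are shown for the 3 genes that fell in hypoxia (Mdm2, Myc, Sirt1), for Bcl2 and Xiap with the highest counts, and for Ptma, the gene that was not lower in TRAP RNA. Each is written 5′ to 3′ on the RNA strand as DNA letters from GENCODE M21 transcripts on GRCm38, with every ATTTA in capitals.
Mdm2: ataagaacATTTAATTTATTTAgtgtcttt
Myc: ttaacagatttgtATTTAattgttttttta
Sirt1: ATTTAaatattcatgtgggtttagtATTTA
Bcl2: tATTTAggaaaaaaaagATTTATTTATTTA
Xiap: tctgcccATTTActtggaATTTAttggagt
Ptma: ttcccgtctcagaATTTAaacgtggtcacc
The windows lie in 3′ untranslated exons at chr10:117689806-117689835 (Mdm2, minus strand), chr15:61990134-61990163 (Myc, plus strand), chr10:63319423-63319452 (Sirt1, minus strand), chr1:106543003-106543032 (Bcl2, minus strand), chrX:42105453-42105482 (Xiap, plus strand) and chr1:86530063-86530092 (Ptma, plus strand). A match to these letters is a description and not a measured binding site.

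In total RNA the 10 genes spanned a wide range of levels. Ptma was the most abundant, with 640 to 1411 TPM over the 12 libraries and a median of 956 TPM. Cdkn1a followed with 442 to 806 TPM (median 579 TPM) and Mcl1 with 507 to 804 TPM (median 572 TPM), and these ranges overlapped. Ccnd1 lay at 68.9 to 187 TPM, Mdm2 at 59.4 to 143 TPM and Trp53 at 38.0 to 64.6 TPM. Xiap lay at 15.2 to 31.0 TPM, Sirt1 at 7.11 to 13.7 TPM and Bcl2 at 4.11 to 8.31 TPM, so among the inhibitors of apoptosis Bcl2 was lowest and Mcl1 highest, with no overlap between them, while the ranges of Bcl2 and Sirt1 overlapped. Myc varied most, with 3.64 to 46.2 TPM (median 26.0 TPM), and its lowest values came from a single mouse, KO-301.

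Facts of the whole series bear on these values. All 8 macrophage markers (such as Csf1r and Adgre1) were detected, with a summed level of 10829 to 26686 TPM in each library. Whole-gene Elavl1 did not differ by the test between the genotypes in total RNA, at 29.4, 34.9 and 26.1 TPM in hypoxia in KO mice against 21.2, 59.8 and 24.9 TPM in HET mice, and at 35.1, 34.8 and 36.1 TPM against 29.9, 30.8 and 35.7 TPM in normoxia (log2 difference 0.14 ± 0.16 SE in normoxia, limma adjusted p = 0.873). In TRAP RNA it was at 1.75 TPM in hypoxia in KO-176 and 0.840 TPM in normoxia in KO-301, against 10.5 to 23.5 TPM in the other 10 TRAP libraries, 4 of them from KO mice. At the other oxygen level these mice had 17.4 TPM (KO-176, normoxia) and 12.2 TPM (KO-301, hypoxia). The genotypes did not differ by the test in TRAP RNA (-0.68 ± 0.75 in hypoxia and -0.94 ± 0.85 in normoxia, limma adjusted p = 0.977 and 0.9998). Such values do not test for loss of an exon, and KO and HET below are the labelled genotypes. The first principal component, with 46.1% of the variance in total RNA and 38.0% in TRAP RNA, set mice KO-301 and HET-129 apart from the other 4. In total RNA these mice had summed neutrophil markers of 99.3 and 34.6 TPM in hypoxia and 63.1 and 23.7 TPM in normoxia, against 5.84 to 14.0 TPM in the other mice, with Ly6g at 0 in every total RNA library. Their stromal marker sums were 24.6 to 60.3 TPM against 1.63 to 10.4 TPM, and their sums for 8 markers of cycling cells were 272 to 547 TPM against 845 to 1230 TPM. In such bulk RNA, fewer cells of a type and less RNA per cell cannot be told apart.

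**Figure D1:**
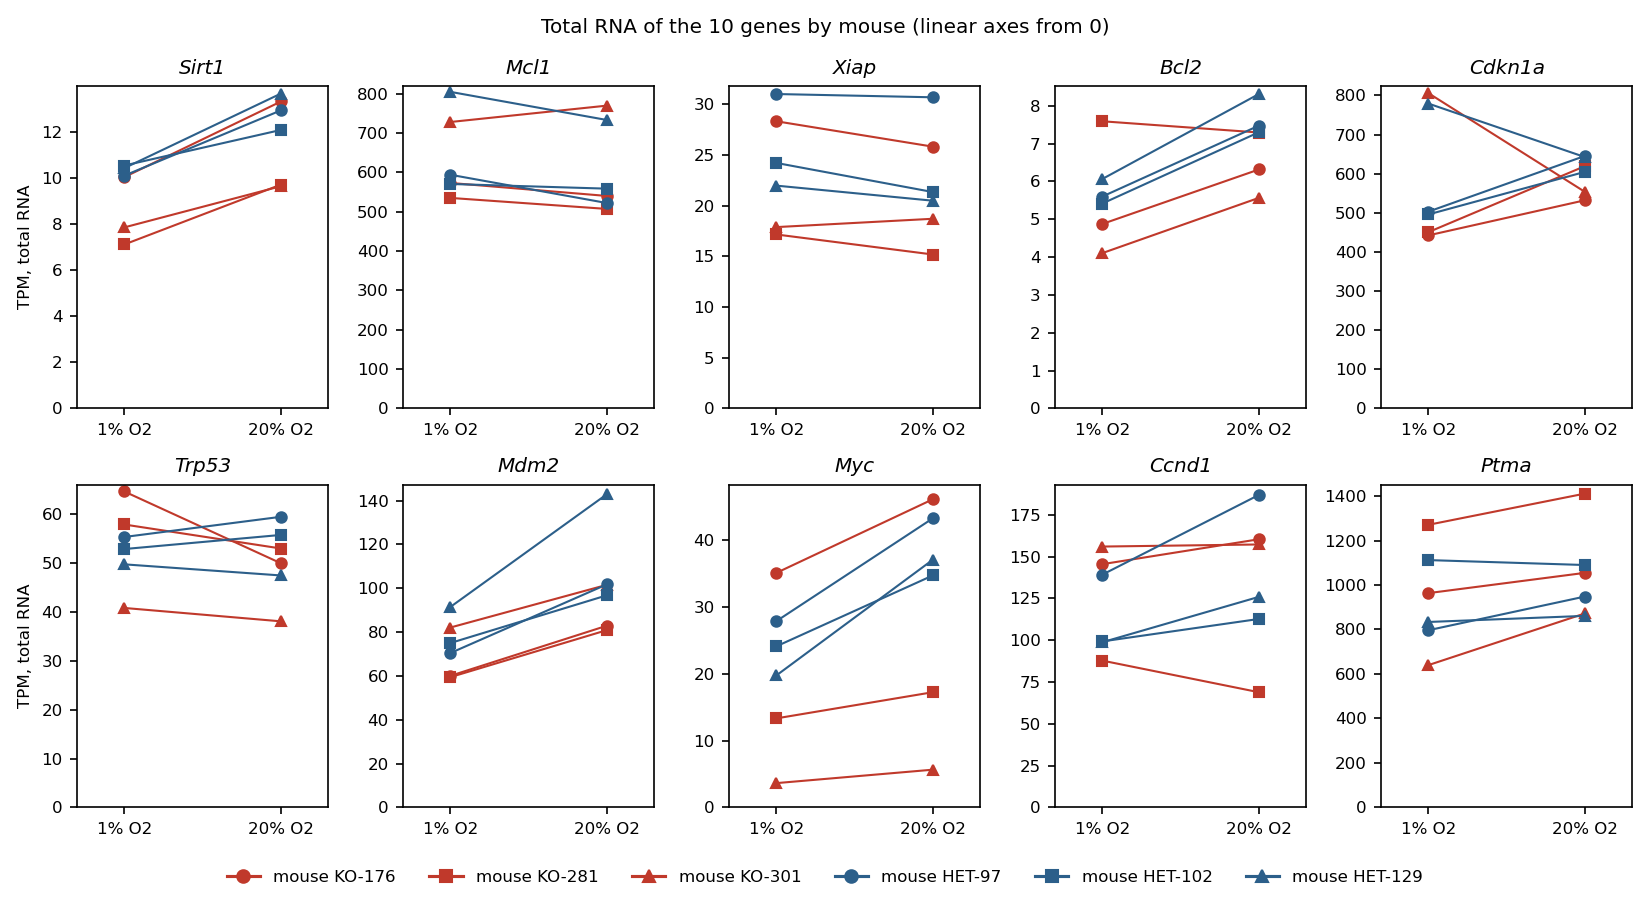
Total RNA level (TPM, linear axis from 0) of each of the 10 genes in hypoxia (1% O2) and normoxia (20% O2), with a line for each mouse, KO in red and HET in blue. The lines of Mdm2, Myc and Sirt1 are lower in hypoxia in all 6 mice, and the Myc line of KO-301 lies far below the others at 3.64 and 5.65 TPM.

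Hypoxia lowered Mdm2, Myc and Sirt1 in total RNA, and each of the 3 was lower in hypoxia in 6 of 6 mice. Mdm2 fell by 0.45 ± 0.06 on the log2(TPM + 1) scale, Myc by 0.54 ± 0.08 and Sirt1 by 0.32 ± 0.07 (SE, n = 6 mice), with limma adjusted p of 0.0138, 0.0230 and 0.0478. Thus 3 of the 10 genes passed the threshold of 0.05 and all were lower, where 3.97% of 12403 genes tested passed in either direction, 2.4% lower and 1.56% higher. The other 7 did not pass, and over all 10 the median change was -0.15, against -0.01 over all genes tested. The comparison set each hypoxic plate against the normoxic plate of the same mouse.

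Mdm2, the ligase that keeps p53 low, had 60.04, 59.4 and 82.1 TPM in hypoxia in the KO mice, in order of animal number here and below, against 82.9, 80.9 and 101.6 TPM in normoxia. In the HET mice it had 70.4, 75.0 and 91.5 TPM in hypoxia against 101.8, 96.8 and 143 TPM in normoxia. The ranges overlapped between mice, since KO-301 and HET-129 were the highest of their genotype at both oxygen levels, but within each mouse the hypoxic value was the lower. Myc had 35.1, 13.3 and 3.64 TPM in hypoxia in the 3 KO mice, against 46.2, 17.3 and 5.65 TPM in normoxia. In the HET mice it had 27.9, 24.1 and 19.8 TPM in hypoxia, all below the 43.3, 34.7 and 37.1 TPM of normoxia. Among HET mice the oxygen groups of Myc did not overlap, and among KO mice the spread between mice was wider than the change. Sirt1 had 10.03, 7.11 and 7.85 TPM in hypoxia in the KO mice, against 13.3, 9.71 and 9.64 TPM in normoxia, and 10.1, 10.5 and 10.4 TPM in hypoxia in the HET mice, against 12.9, 12.1 and 13.7 TPM in normoxia. The HET groups did not overlap, while in KO mice KO-176 in hypoxia lay above KO-281 and KO-301 in normoxia.

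These calls rest on the pairing of plates by mouse and on the number of mice. Without the mouse as a block limma's adjusted p was 0.513 for Mdm2, 0.978 for Myc and 0.656 for Sirt1. Mdm2 passed without mouse HET-129, KO-281 or KO-301 but not when HET-102, HET-97 or KO-176 was left out (adjusted p 0.0516 to 0.0603). Sirt1 lost its call whichever mouse was left out (0.0822 to 0.137), and Myc kept its call in 1 of these 6 fits. Without both KO-301 and HET-129 the adjusted p were 0.0801, 0.0993 and 0.186, with changes of -0.45, -0.47 and -0.32. The fitted differences of the 8 markers of cycling cells were all below 0 (median -0.33) with 0 of 8 past the threshold. Their summed level was lower in hypoxia in 5 of 6 mice but not in HET-102, at 1184 TPM in hypoxia and 1075 TPM in normoxia, and over all mice it was 272 to 1184 TPM in hypoxia and 447 to 1230 TPM in normoxia. Their part in the lower Myc was not tested.

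Of the remaining survival genes none passed in total RNA. Bcl2 had 4.88, 7.59 and 4.11 TPM in hypoxia in the KO mice, against 6.32, 7.29 and 5.57 TPM in normoxia, and 5.60, 5.42 and 6.06 TPM in hypoxia in the HET mice, against 7.48, 7.30 and 8.31 TPM in normoxia. It was lower in 5 mice and 0.05 higher on the log2 scale in KO-281, with a mean change of -0.29 ± 0.09 (limma adjusted p = 0.110). Genes on the opposite strand or within the annotated span of Bcl2, Sirt1, Ccnd1 and Cdkn1a could have shared reads with them, as the strand setting is not given in the sources used here. Mcl1 differed by 0.07 ± 0.05 (adjusted p = 0.395) and Xiap by 0.09 ± 0.06 (adjusted p = 0.449), each higher in hypoxia in 5 of 6 mice and lower in KO-301. Mcl1 averaged 634 ± 107 TPM in hypoxia and 605 ± 115 TPM in normoxia (SD, n = 6). Ptma, whose annotated pseudogene copy Ptma-ps1 makes its counts uncertain, was lower in 5 of 6 mice, by 0.17 ± 0.06 on average (adjusted p = 0.184). It averaged 936 ± 229 TPM in hypoxia and 1039.6 ± 204 TPM in normoxia.

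Cdkn1a split the mice in both fractions. In total RNA it had 442 and 451 TPM in hypoxia in KO-176 and KO-281, against 532 and 619 TPM in normoxia, and 503 and 496 TPM in hypoxia in HET-97 and HET-102, against 645 and 605 TPM in normoxia. In KO-301 it had 806 TPM in hypoxia against 553 TPM in normoxia, and in HET-129 779 TPM against 642 TPM. The gene was thus lower in hypoxia in 4 mice, by 0.27 to 0.46 on the log2 scale, and higher in the other 2 mice, by 0.54 and 0.28. Its mean change over 6 mice was -0.09 ± 0.14 (limma adjusted p = 0.732), and without these 2 mice it was -0.34 ± 0.05 (adjusted p = 0.0881). In TRAP RNA the same 4 mice were lower in hypoxia, by 0.32 to 0.48, and the same 2 higher, by 0.43 in KO-301 and 0.39 in HET-129. These are the mice with the higher neutrophil and stromal and the lower cycling marker sums in total RNA. In TRAP RNA the order was the same, but their stromal sums were only 1.46 to 3.29 TPM, against at most 1.28 TPM in the other mice. Neutrophil markers of HET-129 in normoxic TRAP RNA were at 14.2 TPM, against 2.81 to 12.4 TPM in those 4 mice. The part of such cells in the split was not tested.

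Trp53 had 64.6, 57.8 and 40.8 TPM in hypoxia in the KO mice, against 49.9, 52.9 and 38.0 TPM in normoxia, and 55.3, 52.8 and 49.7 TPM in hypoxia in the HET mice, against 59.4, 55.7 and 47.4 TPM in normoxia. It was higher in hypoxia in 4 of 6 mice, and the mean difference of 0.08 ± 0.07 did not pass (limma adjusted p = 0.548). Ccnd1 had 145, 87.8 and 156 TPM in hypoxia in the KO mice, against 160.3, 68.9 and 157 TPM in normoxia, and 139, 99.2 and 98.8 TPM in hypoxia in the HET mice, against 187, 113 and 126 TPM in normoxia. The groups overlapped, with 5 of 6 mice lower in hypoxia and KO-281 higher, and the mean difference was -0.13 ± 0.10 (adjusted p = 0.487). The difference of Ccnd1 was -0.22 without KO-281 and -0.07 without HET-97.

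In lists of related genes, there was at most 1 call each in hypoxia, where 3.97% of all genes tested passed, so the counts are no result about the lists. Of 25 tested genes of the p53 pathway, 1 fell, the growth arrest gene Gadd45a, at 38.8 ± 20.0 TPM in hypoxia and 59.3 ± 30.7 TPM in normoxia (SD, n = 6) and lower in 6 of 6 mice (log2 change -0.60 ± 0.07, limma adjusted p = 0.00997), and its call held with any 1 mouse left out but not without both KO-301 and HET-129 (adjusted p = 0.0836). Of 12 genes of the MYC network, 1 rose, Mxi1, whose protein competes with MYC for MAX, at 29.7 ± 8.27 TPM in hypoxia and 20.2 ± 7.57 TPM in normoxia and higher in 6 of 6 mice (0.58 ± 0.12, adjusted p = 0.0426). Of 21 G1 cyclins, kinases and inhibitors, 1 fell, the inhibitor Cdkn1c, at 26.9 ± 11.5 TPM in hypoxia and 39.3 ± 19.0 TPM in normoxia and lower in 5 of 6 mice (-0.48 ± 0.10, adjusted p = 0.0465). Of 3 relatives of Ptma, 1 rose, the actin-binding thymosin gene Tmsb10 (0.24 ± 0.05, adjusted p = 0.0496). The calls of Mxi1 and Tmsb10 were lost whichever mouse was left out, that of Cdkn1c unless it was HET-97, and all 4 without the mouse block.

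Other survival and sirtuin genes gave no calls. Of 14 genes of the BCL2 family other than Mcl1 and Bcl2, 0 passed (lowest adjusted p 0.0883, median log2 change 0.09). The most abundant were Bcl2a1b, with 417 ± 126 TPM in hypoxia and 366 ± 125 TPM in normoxia, and Bax, an effector of apoptosis, with 221 ± 51.0 TPM and 227 ± 45.5 TPM. Of 16 caspases, IAPs and regulators 0 passed (lowest adjusted p 0.117), with Xaf1 and Birc5 the most abundant at 133 ± 154 and 120.2 ± 125 TPM in hypoxia and 128 ± 131 and 137 ± 147 TPM in normoxia. Of 10 other sirtuins and NAD synthesis genes 0 passed (lowest adjusted p 0.170). Nampt, the rate-limiting enzyme of NAD salvage, had 67.7 ± 14.9 TPM in hypoxia and 71.3 ± 18.4 TPM in normoxia, and Sirt2 had 49.1 ± 14.0 TPM and 43.7 ± 13.8 TPM.

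In ribosome-bound RNA none of the 10 genes passed between hypoxia and normoxia, where 0.0343% of 11676 genes tested did (4 genes, with 1713 at an unadjusted p under 0.05). Mdm2 had 25.3, 31.1 and 35.9 TPM in hypoxia in the KO mice, against 32.5, 35.1 and 28.8 TPM in normoxia, and 31.9, 21.9 and 36.3 TPM in hypoxia in the HET mice, against 53.2, 35.1 and 37.8 TPM in normoxia. It was lower in 5 of 6 mice and higher in KO-301, with a mean change of -0.27 ± 0.15 (limma adjusted p = 0.425). Myc had 18.6, 14.8 and 1.07 TPM in hypoxia in the KO mice, against 7.69, 9.81 and 3.56 TPM in normoxia, and 15.8, 10.6 and 8.96 TPM in hypoxia in the HET mice, against 23.4, 19.1 and 11.6 TPM in normoxia. All HET mice were lower in hypoxia, while KO-176 and KO-281 were higher and KO-301 lower, and the mean change was -0.18 ± 0.30 (adjusted p = 0.809). Sirt1 had 1.59, 2.03 and 1.09 TPM in hypoxia in the KO mice, against 1.40, 0.726 and 2.34 TPM in normoxia, and 3.10, 2.73 and 1.36 TPM in hypoxia in the HET mice, against 2.86, 3.02 and 1.97 TPM in normoxia. It was lower in 3 mice and higher in 3, with a mean change of -0.02 ± 0.20 (adjusted p = 0.979), on a scale that understates changes of such low values.

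The change with oxygen was also compared between the fractions within each mouse. The hypoxia change in TRAP minus that in total RNA was 0.30 ± 0.22 for Sirt1 and 0.36 ± 0.28 for Myc (limma adjusted p = 0.843 each), and over the 10 genes it ran from -0.06 to 0.36. No gene passed among those tested (0.0%, with 708 at an unadjusted p under 0.05). The falls of Mdm2, Myc and Sirt1 in total RNA were therefore not shown to differ from their changes on ribosomes, and the median SE of 0.17 per gene in TRAP RNA was larger than the 0.11 of total RNA.

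**Figure D2:**
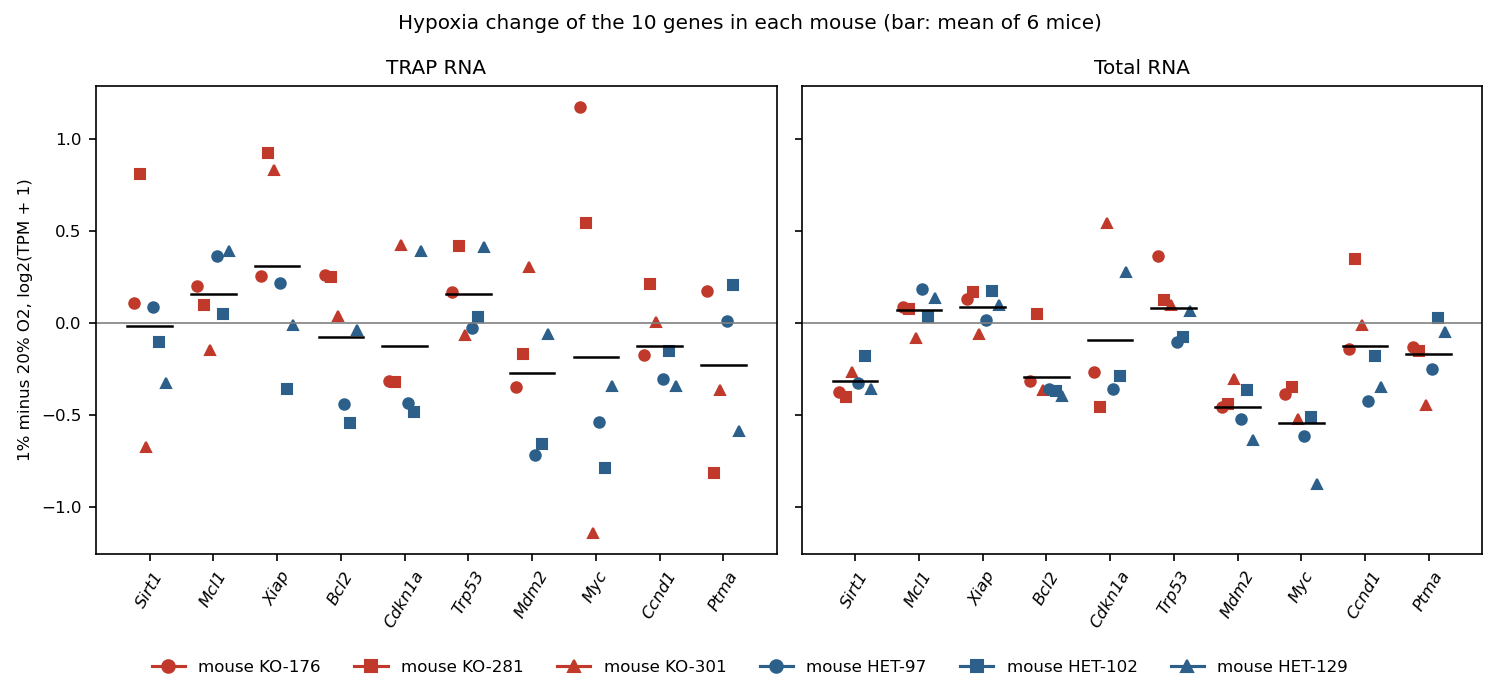
Hypoxia minus normoxia within each mouse, on the log2(TPM + 1) scale, in TRAP RNA (left) and total RNA (right), with a symbol for each mouse and a bar for the mean of 6 mice. In total RNA all symbols of Mdm2, Myc and Sirt1 lie below 0, and in TRAP RNA those of Myc spread from -1.14 to 1.17.

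The largest differences of these genes were between the fractions. In TRAP RNA against total RNA of the same lysates, 9 of the 10 genes were lower at both oxygen levels and Ptma was not. Most genes shifted the same way, since 66.6% of 12256 genes passed in hypoxia (59.0% lower, 7.57% higher) and 65.9% of 12147 in normoxia (59.2% lower, 6.64% higher), and the median of all genes tested was -0.55 in hypoxia and -0.60 in normoxia. The median of the 10 genes was -1.10 in hypoxia and -1.21 in normoxia. TPM are shares, so a fall of many genes goes with a rise of a few abundant ones. After quantile normalization the median of all genes was at 0.00 in hypoxia and 0.01 in normoxia, calls were split into 2805 higher and 2730 lower in hypoxia and 2680 higher and 2491 lower in normoxia, against 928 higher and 7229 lower and 807 higher and 7197 lower before it, and 7 of the 10 genes were still lower. Trp53 and Myc then lost their calls (limma adjusted p 0.0916 and 0.429 in hypoxia, 0.0593 and 0.115 in normoxia).

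Xiap stood lowest. It had 4.36, 4.32 and 3.12 TPM in TRAP RNA of hypoxic KO mice, against 28.3, 17.2 and 17.9 TPM in their total RNA, and 7.27, 2.75 and 0.797 TPM in TRAP RNA of hypoxic HET mice, against 31.0, 24.2 and 22.0 TPM in total RNA. In normoxia it had 3.48, 1.80 and 1.31 TPM in TRAP RNA of KO mice against 25.8, 15.2 and 18.7 TPM in total RNA, and 6.11, 3.80 and 0.810 TPM in TRAP RNA of HET mice against 30.7, 21.3 and 20.5 TPM in total RNA. The fractions did not overlap, and the difference was -2.47 ± 0.24 in hypoxia and -2.69 ± 0.21 in normoxia, with 0.490% and 0.395% of genes tested lower still. Sirt1, whose TRAP values are given above, followed at -1.82 ± 0.16 and -2.12 ± 0.18, with 2.31% and 1.32% of genes lower. Limma's adjusted p for both genes was at most 0.00157 over all alternatives tried in normoxia.

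Bcl2 had 1.47, 3.45 and 1.18 TPM in TRAP RNA of hypoxic KO mice and 1.36, 1.6003 and 0.865 TPM in hypoxic HET mice, against 4.11 to 7.59 TPM in their total RNA. In normoxia it had 1.06, 2.75 and 1.12 TPM in KO mice and 2.21, 2.79 and 0.917 TPM in HET mice, against 5.57 to 8.31 TPM in total RNA. It was lower in TRAP RNA by 1.36 ± 0.16 in hypoxia and 1.57 ± 0.19 in normoxia. At the low TRAP values of Bcl2, Xiap and Sirt1 the log2(TPM + 1) scale understates such differences. Mdm2 differed by -1.24 ± 0.11 in hypoxia and -1.42 ± 0.14 in normoxia, Mcl1 by -1.16 ± 0.07 and -1.24 ± 0.09, and Ccnd1 by -1.04 ± 0.10 and -1.05 ± 0.12, and all 3 were lower in 6 of 6 mice at both oxygen levels. Myc differed by -0.81 ± 0.18 in hypoxia, where KO-281 was the 1 mouse with more in TRAP RNA, and by -1.17 ± 0.24 in normoxia, where KO-176 stood lowest at -2.44.

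Before quantile normalization Trp53 and Cdkn1a lay close to the median of all genes tested, and Ptma above it. After it, with that median at about 0, Cdkn1a was still called lower and Ptma was not called higher. Over all alternatives Cdkn1a ran from -0.68 to -0.51 in hypoxia and from -0.66 to -0.46 in normoxia. Trp53 differed by -0.64 ± 0.10 in hypoxia and -0.72 ± 0.10 in normoxia, and Cdkn1a by -0.63 ± 0.07 and -0.59 ± 0.09, where 45.3% and 50.4% of genes were lower than Cdkn1a. Ptma had 1037, 1186 and 744 TPM in TRAP RNA of hypoxic KO mice, against 963, 1271 and 639.8 TPM in total RNA, and 860.5, 1229.8 and 752 TPM in TRAP RNA of hypoxic HET mice, against 797, 1112 and 834 TPM in total RNA. In normoxia its TRAP values ran from 853 to 2089 TPM, the highest in KO-281, against 861 to 1411 TPM in total RNA. Its fractions overlapped, with differences of 0.06 ± 0.07 in hypoxia and 0.12 ± 0.11 in normoxia (limma adjusted p = 0.487 and 0.384), yet 83.0% and 86.0% of genes tested were lower than Ptma.

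**Figure D3:**
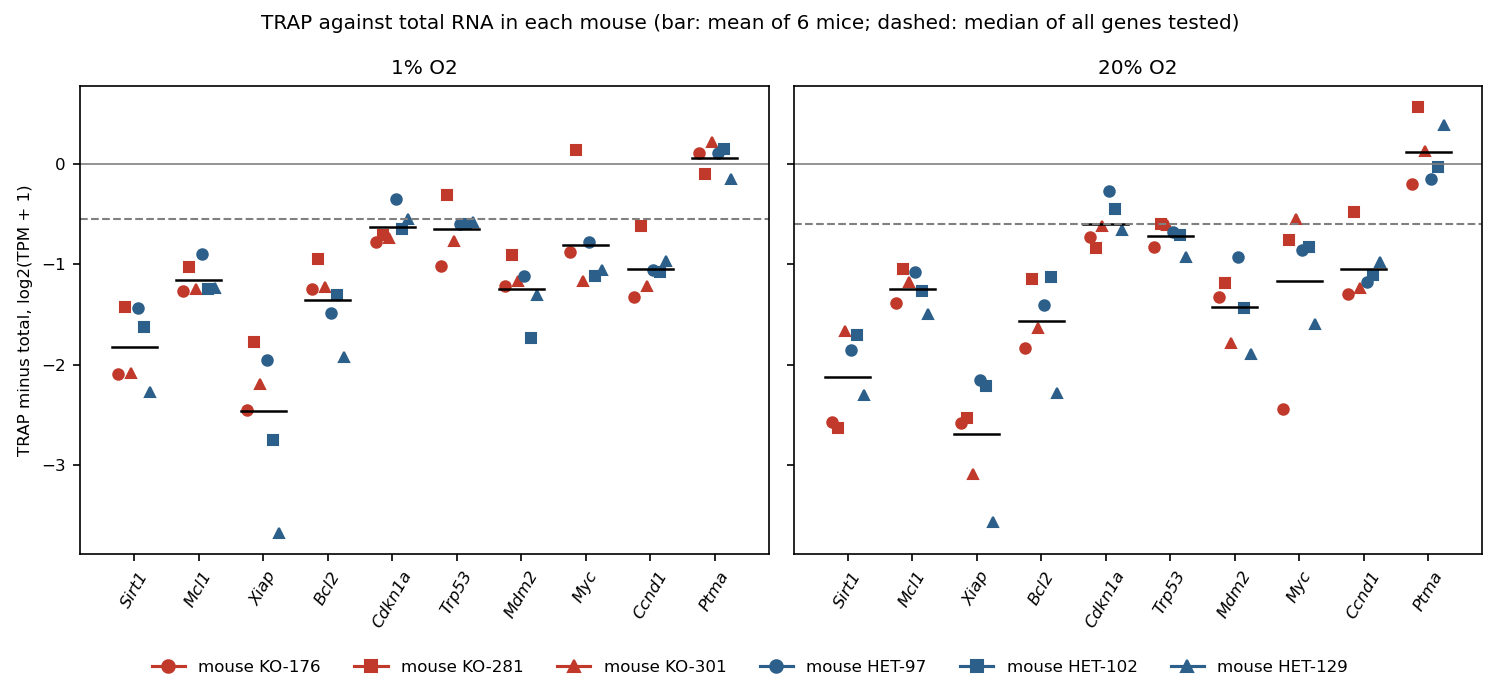
TRAP minus total RNA on the log2(TPM + 1) scale for the 10 genes in each mouse, in hypoxia (left) and normoxia (right), with a bar for the mean of 6 mice and a dashed line for the median of all genes tested (-0.55 and -0.60). Xiap and Sirt1 lie furthest below the line, Cdkn1a and Trp53 near it and Ptma above it.

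The order of the 10 genes largely followed transcript length. Annotated lengths were 1216 bases for Ptma, 1771 for Trp53, 2080 for Cdkn1a, 2338 for Myc, 3099 for Mdm2, 3418 for Mcl1, 3740 for Ccnd1, 4430 for Sirt1, 6834 for Xiap and 7191 for Bcl2. Across the 10 genes Spearman's rho between length and the TRAP minus total difference was -0.903 in hypoxia and -0.867 in normoxia. Across all genes tested with an annotated length it was -0.670 over 10580 genes in hypoxia and -0.627 over 10502 genes in normoxia, and these are descriptions across genes that share the same libraries. For the length of the 3′ untranslated region it was -0.508 and -0.506 over all these genes, and for ATTTA copies per kilobase -0.267 and -0.287. Across the 10 genes these were -0.733 and -0.661 for that region and -0.4545 and -0.5515 for ATTTA, in hypoxia and normoxia. The part of length in the low TRAP share of Xiap, Sirt1 and Bcl2 was not tested apart from that of the motif.

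**Figure D4:**
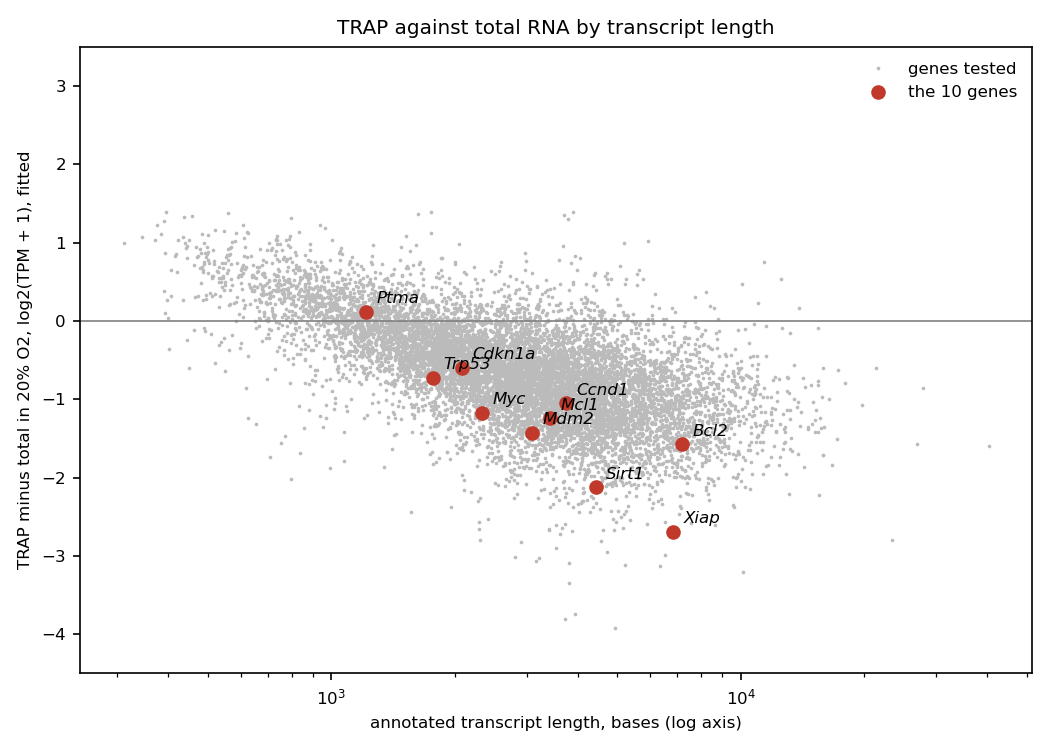
TRAP minus total RNA in normoxia (log2(TPM + 1), fitted over 6 mice) against annotated transcript length in bases (log axis), for 10502 genes in grey and the 10 genes in red. The cloud runs downward with length, and Xiap and Sirt1 lie at its lower edge.

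The relatives of the 10 genes were also compared between fractions in normoxia. Lower in TRAP RNA were 20 of 25 p53 pathway genes, 13 of 21 G1 genes, 10 of 16 caspase and IAP genes, 7 of 12 MYC network genes, 5 of 14 BCL2 family genes and 5 of 10 sirtuin and NAD genes, against 59.2% of all genes tested. Higher in TRAP RNA were all 3 parathymosin and thymosin genes in normoxia, against 6.64% of all genes. In hypoxia it was 2 of the 3, where Ptms, the parathymosin gene, did not pass (0.11 ± 0.08, limma adjusted p = 0.229). The part of transcript length in these calls was not tested. In normoxia Tmsb10 was higher by 0.57 ± 0.11 (limma adjusted p = 0.00203) but not after quantile normalization (adjusted p = 0.349). The genes of smallest p in the other lists were Ccng1, a p53 target (-1.46 ± 0.16, adjusted p = 1.67e-04), the pocket protein gene Rbl2 (-1.57 ± 0.13, 1.04e-04), the inhibitor of apoptosis gene Birc3 (-1.29 ± 0.17, 3.32e-04), Mlxip (-2.01 ± 0.19, 1.18e-04), the BH3-only gene Pmaip1 (-1.21 ± 0.20, 8.29e-04) and Sirt2 (-1.19 ± 0.13, 1.51e-04). Bax, with higher values in TRAP RNA, was the 1 BCL2 family gene called in that direction (0.56 ± 0.11, adjusted p = 0.00197), and Pmaip1 lost its call after quantile normalization (adjusted p = 0.104).

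Between labelled KO and HET macrophages none of the 10 genes passed at either oxygen level or in either fraction. Across all genes limma called 0.0% in each of the 4 comparisons, with 486 (TRAP, hypoxia), 234 (TRAP, normoxia), 371 (total, hypoxia) and 468 (total, normoxia) genes at an unadjusted p under 0.05. The median of all genes in total RNA was -0.11 in hypoxia and -0.14 in normoxia, and quantile normalization brought both to 0.00 or -0.01. The differences of the 10 genes ran from -0.53 to 0.36 in TRAP RNA in hypoxia, from -1.29 to 0.28 in TRAP RNA in normoxia, from -0.88 to 0.18 in total RNA in hypoxia and from -1.13 to 0.18 in total RNA in normoxia. Summed macrophage markers were lower in every KO mouse than in every HET mouse in total RNA, at 16162 to 21213 TPM against 24568 to 26205 TPM in hypoxia and 14252 to 20323 TPM against 22773 to 26686 TPM in normoxia. The same held in TRAP RNA in hypoxia, at 10982 to 14026 TPM against 18656 to 20869 TPM, while in TRAP RNA in normoxia the ranges of 10829 to 12886 TPM and 11421 to 20006 TPM overlapped. Of the 8 markers 0 passed in each comparison and 6 were below 0, where 59.1% to 67.0% of all genes tested were below 0. The part of these markers in the differences of the 10 genes was not tested. Among the 10 genes Myc gave the lower end in all 4 and Ptma, Ccnd1 or Xiap the upper.

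Myc had the largest differences by genotype, with a wide spread between mice. In total RNA it was lower in KO mice by 0.88 ± 0.69 in hypoxia and 1.13 ± 0.65 in normoxia (SE, n = 3 each, limma adjusted p = 0.977 and 0.856), but KO-176 lay above all HET mice at both oxygen levels and KO-301 far below. Without KO-301 the differences were -0.12 and -0.42. In TRAP RNA in normoxia the 3 KO values of 7.69, 9.81 and 3.56 TPM were all below the 3 HET values of 23.4, 19.1 and 11.6 TPM, with a difference of -1.29 ± 0.44 (adjusted p = 0.9998). In TRAP RNA in hypoxia the difference of -0.53 ± 0.82 turned to 0.49 without KO-301. KO-301 was 1 of the 2 mice that stood apart across all genes, and the part of this in its low Myc was not tested.

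Genotypes did not overlap for 3 of the 10 genes in TRAP RNA in normoxia, all lower in KO mice, where the same held for 5.9% of genes tested (4.14% lower in KO). Besides Myc these were Cdkn1a, with 321, 345 and 359 TPM in KO mice against 534, 443 and 407 TPM in HET mice (-0.42 ± 0.22, limma adjusted p = 0.9998), and Mdm2, with 32.5, 35.1 and 28.8 TPM against 53.2, 35.1 and 37.8 TPM (-0.36 ± 0.27, adjusted p = 0.9998), where the nearest KO and HET mice differed by under 0.1 TPM. In TRAP RNA in hypoxia no gene of the 10 was without overlap, where 10.3% of genes tested were. In total RNA it was Sirt1 in hypoxia, with 10.03, 7.11 and 7.85 TPM in KO mice against 10.1, 10.5 and 10.4 TPM in HET mice (-0.29 ± 0.20, adjusted p = 0.977), 1 of 10 genes against 8.53% of all. In normoxia it was Bcl2, with 6.32, 7.29 and 5.57 TPM in KO mice against 7.48, 7.30 and 8.31 TPM in HET mice (-0.24 ± 0.21, adjusted p = 0.856), 1 of 10 against 10.2% of all. The nearest KO and HET values of Bcl2 there were 7.29 and 7.30 TPM. With 3 mice a genotype and a median SE of 0.27 to 0.40 on the log2 scale per gene, these comparisons had a low precision.

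**Figure D5:**
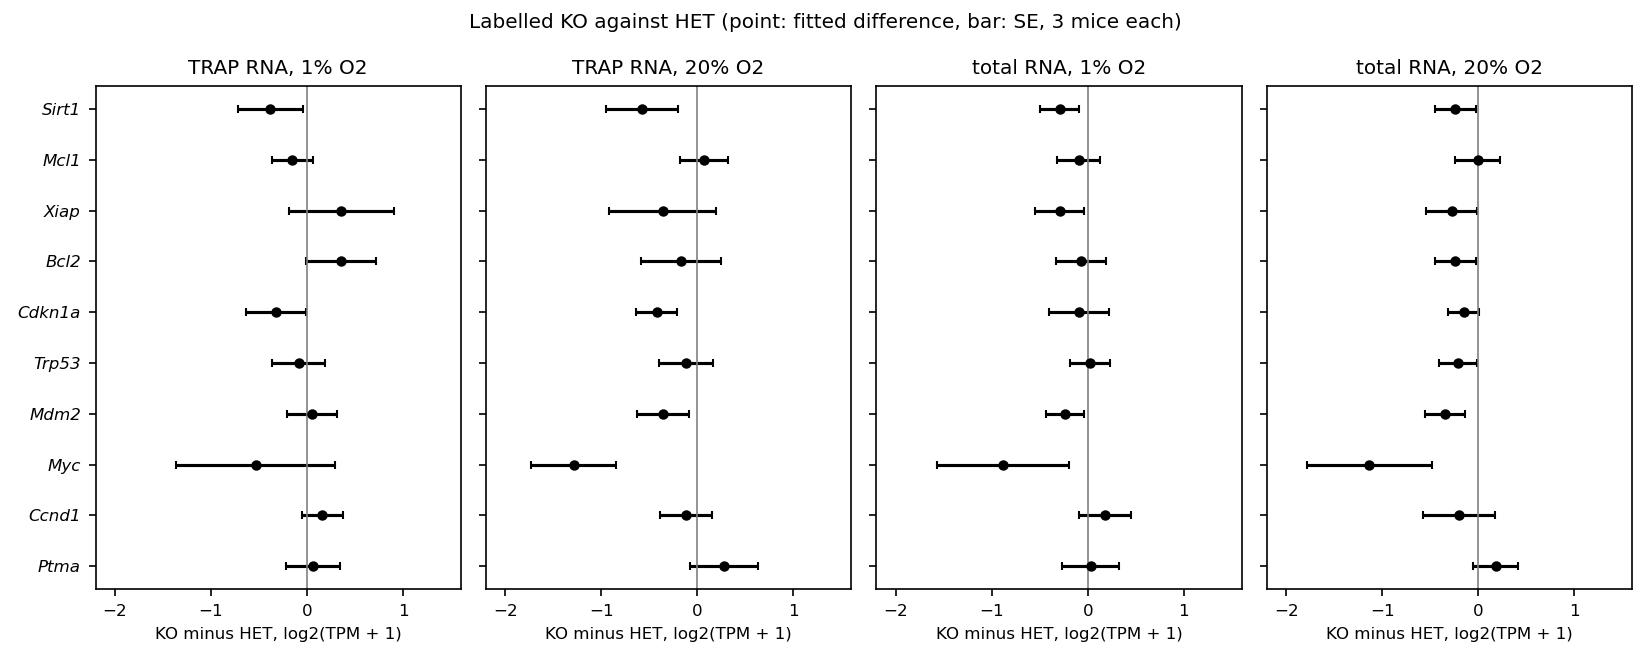
Labelled KO minus HET on the log2(TPM + 1) scale for the 10 genes in TRAP and total RNA at each oxygen level, with a point for the fitted difference and a bar for its SE (3 mice each). Myc has the lowest points in each panel, with wide bars, from -0.53 to -1.29, and none of the 40 differences passed.

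The response to hypoxia was also compared between genotypes. No gene of the 10 passed and no gene of all tested did (0.0% in both fractions, with 432 genes in TRAP RNA and 574 in total RNA at an unadjusted p under 0.05). In TRAP RNA the changes of Bcl2 were 0.26, 0.25 and 0.04 in KO mice against -0.44, -0.54 and -0.04 in HET mice (difference 0.53 ± 0.30, limma adjusted p = 0.999). Those of Xiap were 0.26, 0.92 and 0.84 in KO mice against 0.22, -0.36 and -0.01 in HET mice (0.72 ± 0.33, adjusted p = 0.999). Bcl2 and Xiap were the 2 of 10 genes without overlap there, against 9.11% of genes tested. The nearest KO and HET mice lay close, at 0.04 and -0.04 for Bcl2 and 0.26 and 0.22 for Xiap. Both genes were low in TRAP RNA, at 0.865 to 3.45 TPM for Bcl2 and 0.797 to 7.27 TPM for Xiap.

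In total RNA the genes without overlap were Ccnd1 and Trp53, 2 of 10 against 10.2% of genes tested. The changes of Ccnd1 were -0.14, 0.35 and -0.01 in KO mice against -0.42, -0.18 and -0.35 in HET mice (0.38 ± 0.15, adjusted p = 0.965). Those of Trp53 were 0.37, 0.13 and 0.10 in KO mice against -0.10, -0.08 and 0.07 in HET mice (0.23 ± 0.12, adjusted p = 0.965). For the genes that fell in hypoxia the difference between genotypes was 0.11 ± 0.12 for Mdm2, 0.25 ± 0.15 for Myc and -0.06 ± 0.15 for Sirt1, with adjusted p of 0.965, 0.965 and 0.986. TRAP minus total RNA, averaged over oxygen levels, differed between genotypes by -0.25 ± 0.14 for Cdkn1a (adjusted p = 0.9999), and no gene passed (0.0%, with 456 at an unadjusted p under 0.05).

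The genes most like each of the 10 over the 12 total RNA libraries were found by Pearson's r of log2(TPM + 1) among 8946 genes. The libraries come in pairs from 6 mice, so r mostly reflects levels that differ between mice. Xiap was closest to Crkl (0.978) and Aco1 (0.976), Mcl1 to Acp5 (0.957) and Ms4a4a (0.955), Bcl2 to Nae1 (0.941), Sirt1 to Mex3c (0.916) and Rbm28 (0.913), and Ptma to Tceal9 (0.961) and Rpl22 (0.957). Trp53 was closest to Stt3a (0.947) and Cyren (0.946), Mdm2 to Hexim1 (0.940) and Taf7 (0.915), and Cdkn1a to Whamm (0.921) and Clk2 (0.869). Myc was closest to Msmo1 (0.966), an enzyme of cholesterol synthesis, and Rai14 (0.963), and Ccnd1 to Hacd3 (0.955) and Entpd7 (0.930).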

How the data were processed

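Bone marrow-derived macrophages of 6 mice gave 24 libraries in 8 groups of 3, with sequencing depth unknown. The authors deposited TPM in 2 tables, 1 for each fraction, and each column summed to between 999629 and 999969. HISAT, DESeq2 and GRCm38 are listed, per the submitters' processing notes, with versions and settings not given in the sources used here. A further 24 columns of ratios between oxygen levels per mouse were not used. Members were found by the deposited symbol and other genes named from a table of identifiers and symbols, in which 233 of 52636 identifiers had no symbol.

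Values were transformed to log2(TPM + 1), and a gene was tested if 3 or more libraries of a fit reached 1 TPM, which all 10 genes did in every fit. Models were fitted with limma 3.58.1 (mean-variance trend) in R 4.3.3. Hypoxia against normoxia and TRAP against total RNA had the mouse as a block. Genotypes were compared with the 6 libraries concerned, and responses as differences within each mouse. Adjusted p are two-sided Benjamini-Hochberg values over all genes tested, with a threshold of 0.05. Equal numbers in the labels mark 1 animal, and deviations from group means correlated between the oxygen levels of a mouse at 0.565 to 0.795 in total and 0.397 to 0.717 in TRAP RNA. Simulated data, with the same residual spread for every gene, were run through some of the models only. These were hypoxia against normoxia in each fraction, KO against HET in normoxic total RNA, and TRAP against total RNA in normoxia.

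The members, lists and tests were chosen with earlier results of these data known. Named besides the 10 genes are Elavl1, genes of 7 lists past the threshold, smallest p first (1 a list for TRAP against total RNA, besides the called relatives described there), in lists without a call in hypoxia the 2 of highest TPM, and the 2 genes most correlated with each member (1 of them is not reported here). Alternatives were a pseudocount of 0.1, no filter, quantile normalization, rescaling to nuclear genes other than ribosomal protein genes, no mouse block, a fit over 12 libraries, and fits without mice.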

Additional observations from a re-analysis of the deposited data

Results flagged for a closer look

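Within each set of 6 mice, the difference of each of the 10 genes was searched for a mouse far from the others, in 40 sets in all, of which 2 had one. Chance gives about 1 in 20 such sets, which is the share found here. Bcl2 in total RNA was 0.05 higher in hypoxia than in normoxia on the log2(TPM + 1) scale in mouse KO-281, while the other 5 mice were lower by 0.32 to 0.40. Myc was 0.14 higher in TRAP than in total RNA in hypoxia in the same mouse KO-281, while the other 5 mice were lower by 0.78 to 1.17.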

How the results depend on the processing

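Calls between hypoxia and normoxia depended most on the number of mice and on the block. In total RNA the 492 calls became 201 with no filter on low values, 0 with no replicate block (812 genes at an unadjusted p under 0.05), 8 without HET-129 and KO-301, and 48 to 224 without 1 mouse. Of the 10 genes, 3 were called, 0 without the replicate block, 0 without HET-129 and KO-301, and 0 to 2 without 1 mouse. In TRAP RNA the 4 calls became 7 after quantile normalization, 0 with a pseudocount of 0.1, no filter, no replicate block or without HET-129 and KO-301, and 0 to 3 without 1 mouse. Between KO and HET the count of 0 became, without HET-129 and KO-301, 1 in TRAP and 1 in total RNA in hypoxia and 2 in each in normoxia, and 0 to 2 in hypoxia and 0 to 1 in normoxia without 1 mouse in either fraction. The fit over 12 libraries gave 1 call in TRAP RNA in hypoxia. The genotype difference in hypoxia response gave 2 calls with a pseudocount of 0.1 in total RNA and 0 to 1 without 1 mouse in both fractions. TRAP against total RNA in normoxia gave 5171 calls after quantile normalization, against 8004. Of 829 values of single genes under alternatives, 758 kept their direction and side of the threshold, 61 lost a call and 10 turned round. Values that stayed uncalled count among the 758, as in the genotype comparisons. The 758 thus do not measure how well calls held. Those that turned round were Elavl1 in hypoxia in total RNA (0.0547 without HET-129 and KO-301), Myc in hypoxia in TRAP RNA (-0.454 to 0.0092 without 1 mouse, 0.10 without both), Sirt1 there (-0.182 to 0.11 without 1 mouse, 0.23 without both), Myc by genotype in hypoxic TRAP RNA (-1.1283 to 0.49 without 1 mouse, 0.33 without both) and the genotype difference of the Mdm2 response in total RNA (-0.0045 without both). None of these 10 was a call, and the cause was not tested. Depth is unknown, so no counting error could be given, and Sirt1, Xiap and Bcl2 at 0.726 to 7.27 TPM in TRAP RNA are the least certain.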
